A study of Homo sapiens with 44 samples.

Results

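The growth factor genes HGF, FGF1, FGF2, FGF5, FGF7, VEGFA, VEGFC, PDGFC and KITLG were followed across the cytokine responses of a colon fibroblast line. The list names secreted factors of stromal cells, and all 9 were found as row symbols among the 40663 symbols of the count table. Bulk RNA-seq was made from Ccd-18Co, an established fibroblast line from human colon, in 44 libraries that form 11 groups of 4 replicates. One group was left unstimulated and the others received 1 cytokine, which was TNF, OSM (oncostatin M), TGF-β1, an interferon (IFNα or IFNγ) or an interleukin (IL-1β, IL-6, IL-13, IL-17A or IL-22). IL-1β was given at 0.1 ng/ml and each other cytokine at 10 ng/ml, so its effects stand beside those of the others at unequal doses. This is the dose of the labels and the methods, and 1 figure legend of the study gives a lower one. All groups, the unstimulated one included, went through 72 h without serum before the 24 h of stimulation. All libraries come from 1 cell line, and nothing in the labels says that replicates were separate cultures, so the p-values measure the spread between these samples, which may be technical. In bulk RNA, fewer cells of a type and less RNA per cell cannot be told apart.

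Stromal cells feed neighbouring cells through such factors, most of which bind receptor tyrosine kinases. HGF acts on epithelium through MET, FGF7 through the epithelial form of the FGF receptor FGFR2, and FGF1 and FGF2 through FGF receptors on many cell types with heparan sulfate as a co-factor. VEGFA drives growth of blood vessels and VEGFC that of lymphatic vessels, PDGFC stimulates mesenchymal cells through PDGFRA, and KITLG (stem cell factor) sustains mast cells and the pacemaker cells of the gut through KIT. In the intestine these factors are studied for epithelial repair, vessel growth and fibrosis.

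The total estimated count per library lay between 742173 and 2213424 (median 1480883), and 1 count was worth 0.464 to 1.28 CPM (counts scaled to a common, normalized library size), limits that cover counting error only. Levels are given in CPM. Of the 10 fibroblast markers looked at, 0 were at 0 in all libraries, and their summed level lay between 17140 and 52830 CPM. DCN, COL1A1 and LUM had the highest medians (15760, 8235 and 3632 CPM). Others were low, with PDGFRB at 1.33 to 14.9 CPM and FAP and THY1 down to 11.85 and 16.9 CPM in single libraries. Defining markers of other cells were at 0 or low. The epithelial genes CDX2 and MUC2, the leukocyte genes CD3E and ITGAM and the neural genes SOX10 and ELAVL4 were at 0 in every library, and EPCAM, PECAM1 and PTPRC reached at most 0.888, 1.82 and 1.60 CPM. Of the epithelial, endothelial, leukocyte and neural markers, VIL1 (up to 26.6 CPM) and UCHL1 (60.4 to 252 CPM) alone went above the 5.12 CPM that TEK reached. Of the smooth muscle genes ACTG2 lay between 216 and 1093 CPM, CNN1 between 2.54 and 44.7 CPM, MYH11 at up to 14.7 CPM and DES at up to 2.37 CPM.

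All 9 genes passed the filter on low counts and were tested among 9513 genes. Each cytokine was compared with unstimulated cells in 1 quasi-likelihood model of all 44 libraries in edgeR, p-values of a comparison were adjusted over all its genes (Benjamini-Hochberg), and a gene is said to have risen or fallen at an adjusted p under 0.05. Fold changes are on the log2 scale with their standard errors (SE). Of the 90 combinations of a growth factor with a cytokine, 15 passed, with 6 rises and 9 falls, and 8 of the 9 genes passed for at least 1 cytokine. That is 16.7% of the combinations, beside 5.45% of the 95130 combinations of all tested genes with a cytokine. At an unadjusted p under 0.05 there were 41 combinations (45.6%), beside 16.1% of all combinations. A fold threshold of 1.5 on the log2 scale, beside the adjusted p, left 6, beside 1.94% of all combinations. The 9 genes were chosen with earlier results of these data known, so these shares describe the list and do not test it.

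IFNγ changed 5 of the 9, with HGF and VEGFC up and FGF1, FGF7 and PDGFC down, where 10.6% of all genes passed, 5.52% upward and 5.13% downward. In a fit of only the IFNγ and unstimulated libraries 2 of these 5 passed, FGF7 and VEGFC. IL-1β changed 4 (7.38% of all genes, 3.46% upward and 3.92% downward), with FGF2 up and FGF1, FGF5 and KITLG down. IL-13 changed 3 (3.93% of all genes, 1.53% upward and 2.4% downward), with KITLG up and HGF and FGF7 down. TGF-β1 changed 2 (5.69% of all genes, 2.61% upward and 3.08% downward), PDGFC upward and HGF downward. TNF changed FGF2 alone, upward, where 11.5% of all genes passed, 5.37% upward and 6.09% downward. For the other 5 cytokines edgeR passed 0 of the 9 genes. With IFNα, which changed 9.85% of all genes, 5 had an unadjusted p under 0.05 (21.4% of all genes) and DESeq2's Wald test passed 1 (FGF1). With OSM (3.96% of all genes) and IL-17A (1.52%) the number at an unadjusted p under 0.05 was 4 each (15.3% and 12.6% of all genes), with IL-6 (0.0105%) it was 1 (2.45% of all genes) and with IL-22 (0%) it was 0 (10.9% of all genes), and DESeq2 passed 0 of the 9 in each of these 4 groups, leaving 4 adjusted p-values for IL-22 undefined. Over all genes IL-22 gave 1037 at an unadjusted p under 0.05 and 96 calls by DESeq2.

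**Figure D1:**
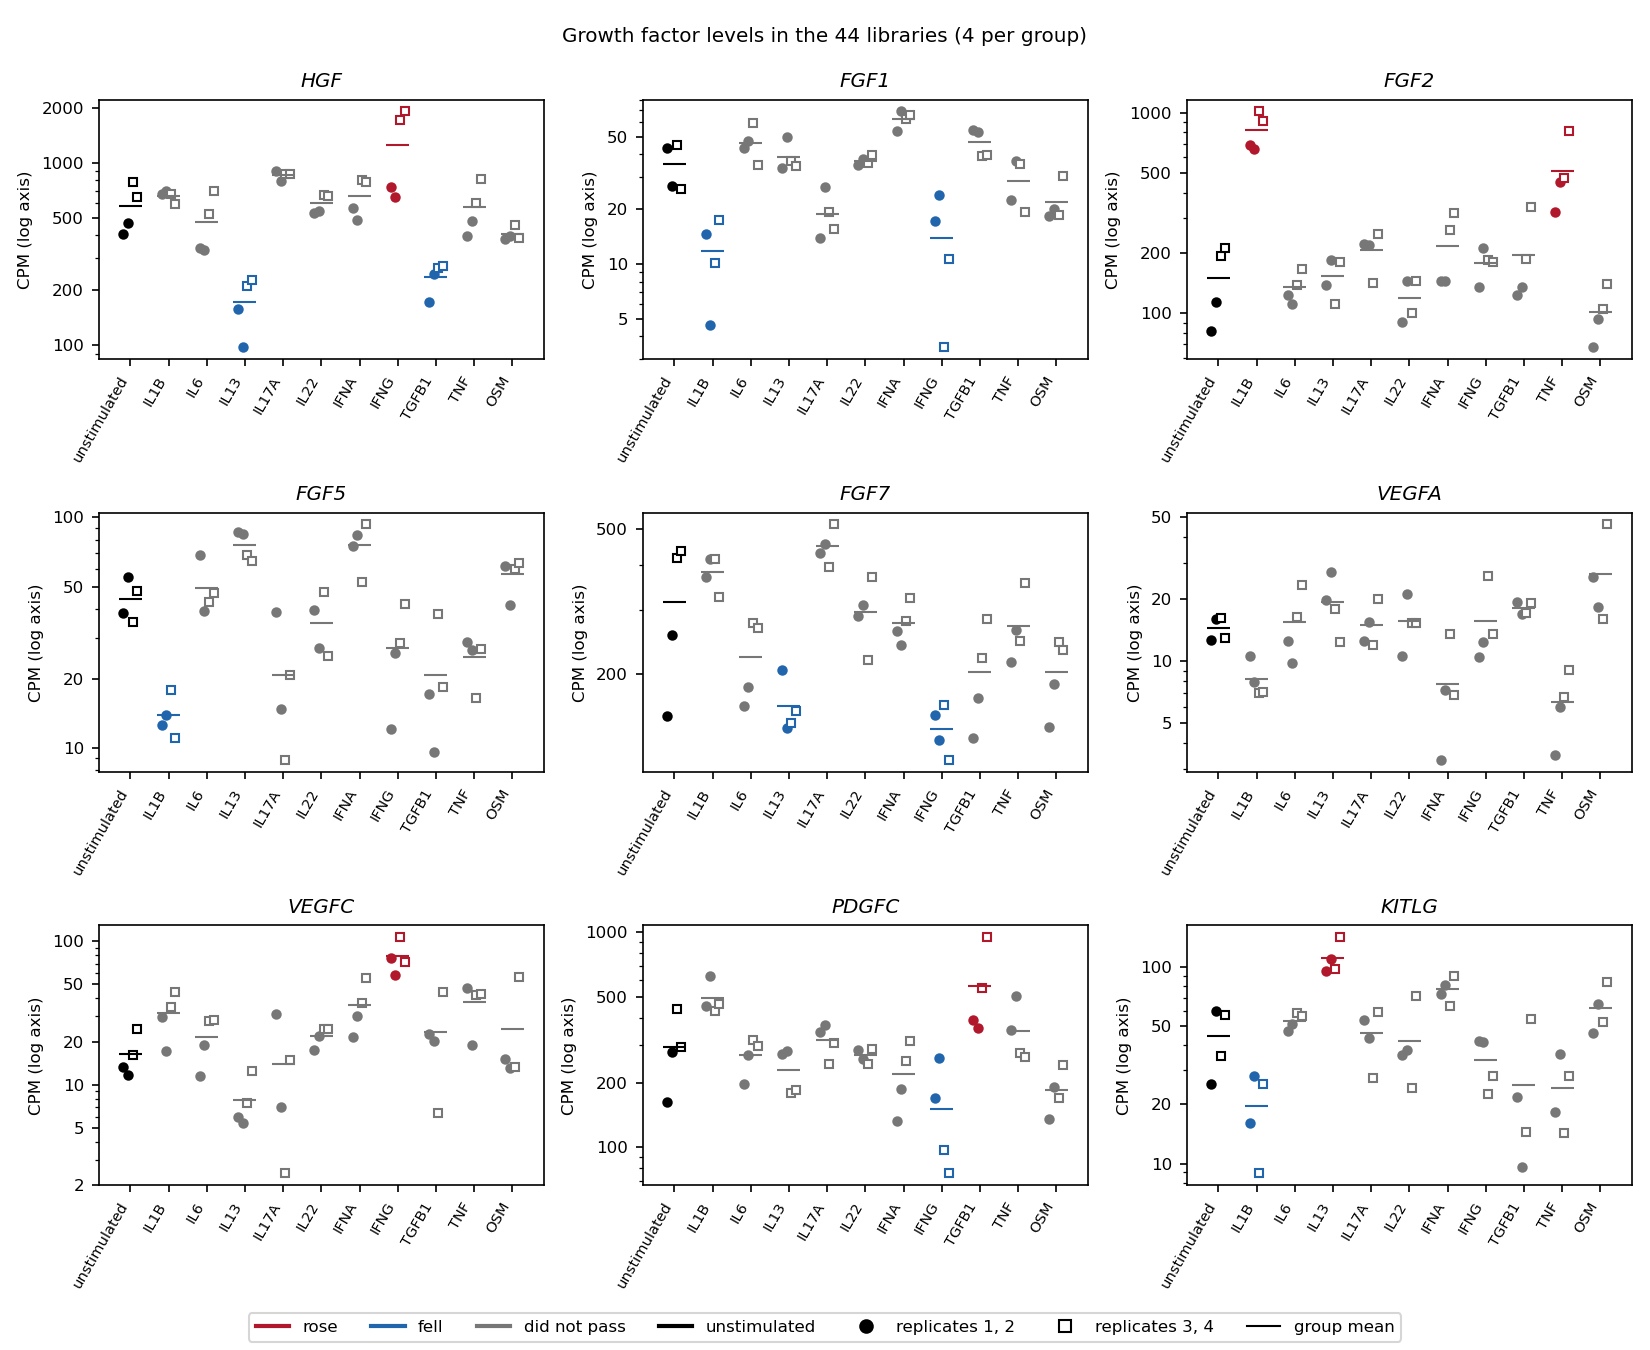
Level of each growth factor gene in CPM on a log axis in the 11 groups. Each point is 1 library (filled circles for replicates 1 and 2, open squares for replicates 3 and 4), each bar is the group mean, and colour marks groups that rose, fell or did not pass against unstimulated cells. FGF2 stands highest with IL-1β and TNF, HGF spans 97.3 to 1908 CPM, and the 4 VEGFC libraries with IFNγ lie above all unstimulated ones.

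In unstimulated cells the genes differed widely in level per length of their canonical transcript. HGF was first at 98.7 CPM per kb, followed by PDGFC (64.1 CPM per kb) and FGF7 (59.2 CPM per kb). FGF2 stood at 22.5 CPM per kb, and FGF1 (9.44), FGF5 (8.33), KITLG (8.17), VEGFC (7.26) and VEGFA (4.01 CPM per kb) were lower. These low genes rest on few reads. The smallest count in any library was 3 for VEGFC, 4 for FGF1, 5 for VEGFA and 9 for FGF5 and KITLG, against 78 for FGF2 and 126 for HGF. All 9 varied over the 11 groups by the test of any difference in the same model, which 35.7% of all genes passed. The F statistic was largest for FGF2 (23.8, adjusted p = 6.92e-13) and HGF (16.1, adjusted p = 3.67e-10) and smallest for VEGFA (4.87, adjusted p = 0.000648).

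The RefSeq table of promoter windows, from 250 bases before to 50 bases after a start site on GRCh38.p14, held 11 windows for 7 of the 9 genes. Those of the 4 members with the largest rises are printed on the strand of the gene, with capitals for GC boxes (GGGCGG or its complement), TATA boxes (TATAAA) and sites that match NF-kB. HGF is at chr7:81769998-81770297 (minus strand), FGF2 at chr4:122826581-122826880 (plus strand), VEGFC at chr4:176792873-176793172 (minus strand) and KITLG at chr12:88580422-88580721 (minus strand).
HGF: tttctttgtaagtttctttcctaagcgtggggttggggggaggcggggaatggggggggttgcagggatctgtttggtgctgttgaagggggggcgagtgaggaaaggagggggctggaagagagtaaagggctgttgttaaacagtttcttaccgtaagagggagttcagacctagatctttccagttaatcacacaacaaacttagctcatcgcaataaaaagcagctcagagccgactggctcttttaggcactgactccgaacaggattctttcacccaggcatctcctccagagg
FGF2: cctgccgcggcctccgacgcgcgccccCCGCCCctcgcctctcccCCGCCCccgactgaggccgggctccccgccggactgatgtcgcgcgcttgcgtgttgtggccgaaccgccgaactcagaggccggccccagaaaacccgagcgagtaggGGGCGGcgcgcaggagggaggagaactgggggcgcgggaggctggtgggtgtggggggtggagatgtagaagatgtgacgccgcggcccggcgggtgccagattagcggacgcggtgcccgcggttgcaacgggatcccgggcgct
VEGFC: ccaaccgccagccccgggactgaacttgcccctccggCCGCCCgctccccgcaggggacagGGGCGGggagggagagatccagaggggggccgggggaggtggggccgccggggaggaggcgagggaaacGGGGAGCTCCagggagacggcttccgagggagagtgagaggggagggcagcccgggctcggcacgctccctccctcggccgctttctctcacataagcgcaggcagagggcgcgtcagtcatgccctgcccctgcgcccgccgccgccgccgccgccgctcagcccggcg
KITLG: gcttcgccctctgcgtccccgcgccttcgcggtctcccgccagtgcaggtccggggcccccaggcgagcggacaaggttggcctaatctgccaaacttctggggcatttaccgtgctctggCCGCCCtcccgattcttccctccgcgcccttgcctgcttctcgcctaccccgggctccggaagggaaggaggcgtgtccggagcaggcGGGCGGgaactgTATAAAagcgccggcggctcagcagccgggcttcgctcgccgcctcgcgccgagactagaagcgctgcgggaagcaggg
The windows of FGF2 (74.7% GC), VEGFC (76.3%) and KITLG (69.7%) are rich in GC beside a median of 58.7% over 35116 windows, and those of HGF (51.0%) and FGF7 (40.3%) are poorer. GC boxes occur in windows of FGF1, FGF2, FGF5, VEGFC and KITLG and in 45.0% of all windows. KITLG has a TATA box at -29, a motif in 11.5% of windows, and VEGFC has a match to NF-kB at -120 (11.3% of windows). The interferon motifs GAS (TTCNNNGAA, 7.66% of windows) and ISRE core (3.57%) were found on either strand in 0 of the 7 genes, which says only that these letters are not in these windows.

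HGF (ENSG00000019991, chr7:81699010-81770438, minus strand, GRCh38) encodes the ligand of MET, a motility and growth signal for epithelium. Its 4 unstimulated libraries held 407, 468, 780 and 648 CPM. With IL-13 they held 157, 97.3, 212 and 228 CPM, and with TGF-β1 172, 245, 265 and 270.1 CPM. Every library of these groups lay below every unstimulated one. HGF fell 3.31-fold with IL-13 (log2 fold change -1.73, SE 0.28, adjusted p = 3.31e-05) and 2.42-fold with TGF-β1 (-1.28, SE 0.27, adjusted p = 0.00195), and the difference between these falls did not pass (log2 difference of IL-13 from TGF-β1 -0.45, SE 0.27, adjusted p = 0.322). With IFNγ the libraries held 731, 650, 1709 and 1908 CPM, so that replicates 1 and 2 lay within the unstimulated range and replicates 3 and 4 above it. The rise passed (log2 fold change 1.12, SE 0.27, adjusted p = 0.00337). In replicates 1 and 2 alone it was 0.68 (adjusted p = 0.0509), in replicates 3 and 4 alone 1.35 (adjusted p = 7.26e-06). IL-17A gave 904, 797, 864 and 870 CPM, all above the unstimulated libraries, without passing (0.58, SE 0.27, adjusted p = 0.350). HGF was 7.19-fold higher with IFNγ than with IL-13 (adjusted p = 1.62e-10). In 8 of the 11 groups, unstimulated cells among them, replicates 3 and 4 both held more HGF than replicates 1 and 2.

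FGF2 (ENSG00000138685, chr4:122826682-122898236, plus strand), basic fibroblast growth factor, acts on fibroblasts and endothelium and leaves the cell without a signal peptide. It was at 81.8, 114, 193 and 211 CPM in unstimulated cells. With IL-1β the libraries held 689, 657, 1017 and 909 CPM, and with TNF 319.8, 452, 472 and 809.9 CPM. All 8 stimulated libraries lay above the highest unstimulated one. FGF2 rose 5.47-fold with IL-1β (log2 fold change 2.45, SE 0.30, adjusted p = 7.49e-08) and 3.44-fold with TNF (1.78, SE 0.30, adjusted p = 2.57e-05). IL-1β, although at the lower dose, gave the higher mean, 818 ± 174 CPM (SD, n = 4) against 514 ± 209 CPM (SD, n = 4), and the log2 difference between them was 0.67 (SE 0.29, adjusted p = 0.326). TNF in turn stood 2.38-fold above IFNα, the next group (adjusted p = 0.00159). This was 1 of 90 comparisons between neighbours in the order of the 11 group means, counted over the 9 genes, and the only one that passed. OSM gave the lowest level (67.6, 94.3, 105 and 140.2 CPM) without passing against unstimulated cells (-0.56, SE 0.30, adjusted p = 0.386), and TNF stood 5.07-fold above OSM (adjusted p = 1.43e-07).

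FGF2 shares 804 exon bases with NUDT6 on the opposite strand, whose counts were 4 to 63 per library, beside 78 to 1601 for FGF2. Reads were counted without regard to strand, so those from the shared bases cannot be told apart. NUDT6 did not pass with IL-1β (log2 fold change 1.03, SE 0.41, adjusted p = 0.141) or with TNF (0.32, SE 0.42, adjusted p = 0.722). With IL-1β its libraries held 22.7, 25.2, 19.1 and 40.9 CPM, all above the unstimulated ones (7.51 to 17.5 CPM).

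FGF7 (ENSG00000140285, chr15:49423237-49488775, plus strand), keratinocyte growth factor, is made by mesenchyme and read by epithelium. The unstimulated libraries held 154, 256, 416 and 434 CPM. IFNγ gave 155, 132, 165 and 116 CPM and IL-13 gave 205, 143, 147 and 159 CPM. These ranges overlap the unstimulated one only through its lowest library. FGF7 fell 2.22-fold with IFNγ (log2 fold change -1.15, SE 0.24, adjusted p = 0.000573) and 1.92-fold with IL-13 (-0.94, SE 0.23, adjusted p = 0.0114). In replicates 1 and 2, where the low unstimulated libraries lie, the falls were -0.49 (adjusted p = 0.279) and -0.20 (adjusted p = 0.776), and in replicates 3 and 4 they were -1.60 (adjusted p = 3.68e-05) and -1.47 (adjusted p = 0.000453). The call for IL-13 was lost without unstimulated replicate 3, unstimulated replicate 4 or IL-13 replicate 2 (adjusted p = 0.0722, 0.0981 and 0.0555). IL-17A (449 ± 51.3 CPM, SD, n = 4) and IL-1β (381 ± 42.4 CPM, SD, n = 4) were the highest groups and did not pass against unstimulated cells. Between the highest and the lowest group, picked by their means, FGF7 was 3.16-fold higher with IL-17A than with IFNγ (adjusted p = 1.25e-06). With TGF-β1 FGF7 did not pass (-0.63, adjusted p = 0.102), but did without unstimulated replicate 1 or TGF-β1 replicate 4 (adjusted p = 0.0118 and 0.0297), and with OSM (-0.64, adjusted p = 0.129) it did without unstimulated replicate 1 (adjusted p = 0.0119). All FGF7 values in the table carry decimals (100% of libraries), which the authors' quantification gives where reads are shared between transcripts. Shares within 1 symbol add up to whole reads again, so decimals stand for reads shared with other symbols. The 8 FGF7 pseudogenes listed in the table reached at most 3 counts.

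FGF1 (ENSG00000113578, chr5:142592178-142698070, minus strand), acidic fibroblast growth factor, binds all FGF receptors. It held 43.6, 27.0, 45.0 and 26.0 CPM in unstimulated cells, 14.6, 4.64, 10.2 and 17.5 CPM with IL-1β and 17.3, 24.1, 3.47 and 10.7 CPM with IFNγ. Every library of both stimulated groups lay below every unstimulated one. FGF1 fell 2.99-fold with IL-1β (log2 fold change -1.58, SE 0.34, adjusted p = 0.000937) and 2.54-fold with IFNγ (-1.35, SE 0.34, adjusted p = 0.00542). Without IFNγ replicate 3 the second call was lost (-1.01, adjusted p = 0.0507). IFNα gave the highest level, 54.0, 69.1, 62.8 and 66.0 CPM, all above the unstimulated libraries. Against unstimulated cells it did not pass (0.83, SE 0.31, adjusted p = 0.0850), though it did by DESeq2 (adjusted p = 0.0369). Between the interferons FGF1 was 4.50-fold higher with IFNα than with IFNγ (log2 difference 2.17, SE 0.34, adjusted p = 9.74e-06).

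FGF5 (ENSG00000138675, chr4:80266639-80336680, plus strand) is known as the factor that ends the growth phase of hair. Unstimulated cells held 38.7, 55.4, 35.2 and 47.8 CPM and cells with IL-1β 12.6, 13.9, 17.8 and 11.0 CPM, without overlap. It fell 3.18-fold (log2 fold change -1.67, SE 0.35, adjusted p = 0.000744). With TGF-β1 the libraries spread from 9.57 to 38.1 CPM and the fall missed the threshold (-1.08, SE 0.34, adjusted p = 0.0515), and it passed with DESeq2 (adjusted p = 0.0295), with all genes of any count kept (adjusted p = 0.0424) or without TGF-β1 replicate 3 (-1.50, adjusted p = 0.0111). IL-17A gave 39.0, 14.8, 8.81 and 20.7 CPM (-1.04, SE 0.33, adjusted p = 0.116), and without its replicate 1 this passed (-1.54, adjusted p = 0.0169). The highest groups were IFNα (76.3 CPM) and IL-13 (76.2 CPM), with a log2 difference of IL-13 from IFNα of -0.00338 (SE 0.31, adjusted p = 0.997), and they stood 5.50-fold and 5.49-fold above IL-1β (adjusted p = 4.63e-07 and 5.78e-07). In 88.6% of libraries the FGF5 value carries decimals, and FGF5 shares 136 exon bases with CFAP299 on the same strand, which had at most 11 counts.

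VEGFC (ENSG00000150630, chr4:176683538-176792922, minus strand) is the main growth factor of lymphatic vessels. Unstimulated libraries held 13.2, 11.7, 16.2 and 24.6 CPM and those with IFNγ 76.8, 58.1, 107 and 71.9 CPM. All 4 IFNγ libraries stood above all unstimulated ones and, with IFNγ replicate 2 as the lowest, above every library of the other groups. VEGFC rose 4.77-fold (log2 fold change 2.25, SE 0.48, adjusted p = 0.000942), by 2.44 in replicates 1 and 2 (adjusted p = 0.00754) and by 2.13 in replicates 3 and 4 (adjusted p = 0.0239). TNF (47.3, 19.0, 42.0 and 42.9 CPM) and IFNα (21.5, 30.3, 37.3 and 55.4 CPM) came next and did not pass (1.21, SE 0.48, adjusted p = 0.0985, and 1.136, SE 0.48, adjusted p = 0.140). The differences of IFNγ from TNF (log2 difference 1.04, SE 0.45, adjusted p = 0.187) and from IFNα (1.12, SE 0.46, adjusted p = 0.130) did not pass. IL-13 was lowest (5.97, 5.405, 7.502 and 12.43 CPM), 10.1-fold below IFNγ (adjusted p = 5.19e-06). With OSM 1 library stood apart, replicate 4 at 56.1 CPM against 13.0 to 15.2 CPM in the other 3.

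VEGFA (ENSG00000112715, chr6:43770184-43786487, plus strand), the main growth factor of blood vessels and a classic target of low oxygen, was the lowest of the 9 per length. It passed with 0 of 10 cytokines in the edgeR model of the 11 groups and by DESeq2, and with 4 at an unadjusted p under 0.05. Unstimulated libraries held 12.7, 16.0, 16.2 and 13.0 CPM. TNF gave 3.53, 6.03, 6.75 and 9.11 CPM and IL-1β gave 10.6, 7.95, 6.99 and 7.13 CPM, all below the unstimulated libraries. The difference with TNF missed the threshold (log2 fold change -1.16, SE 0.40, adjusted p = 0.0511) and passed without TNF replicate 4 (-1.38, adjusted p = 0.0401), and that with IL-1β was smaller (-0.81, SE 0.39, adjusted p = 0.266). OSM gave 25.6, 18.4, 16.0 and 46.2 CPM, the highest mean (0.86, SE 0.37, adjusted p = 0.237). Between cytokines VEGFA did differ, in 12 of 45 pairs, and was 4.06-fold higher with OSM than with TNF (log2 difference of TNF from OSM -2.02, SE 0.40, adjusted p = 0.000249). VEGFA shares 188 exon bases, and KITLG 80, with RNAs annotated on the opposite strand that have no symbol to match in the table.

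PDGFC (ENSG00000145431, chr4:156760454-156971799, minus strand), a ligand of PDGFRA that fibroblasts also answer to, held 162, 276, 442 and 292 CPM in unstimulated cells. TGF-β1 gave 391, 361, 552 and 947 CPM and IFNγ gave 169, 259, 97.1 and 75.5 CPM. Both groups overlap the unstimulated one. PDGFC rose 1.93-fold with TGF-β1 (log2 fold change 0.94, SE 0.30, adjusted p = 0.0466) and fell 1.95-fold with IFNγ (-0.96, SE 0.30, adjusted p = 0.0295). Either call was lost in 5 of the 8 fits that left out 1 of its libraries. For TGF-β1 these were unstimulated replicates 1, 2 and 4 and TGF-β1 replicates 3 and 4 (adjusted p = 0.143, 0.113, 0.0903, 0.0759 and 0.215), and for IFNγ unstimulated replicates 2, 3 and 4 and IFNγ replicates 3 and 4 (adjusted p = 0.0554, 0.186, 0.0594, 0.149 and 0.172). The fall with IFNγ was -0.01 in replicates 1 and 2 (adjusted p = 0.991) and -2.08 in replicates 3 and 4 (adjusted p = 1.99e-06). Set against each other, TGF-β1 stood 3.76-fold above IFNγ (log2 difference of IFNγ from TGF-β1 -1.91, SE 0.31, adjusted p = 9.91e-06) and 3.07-fold above OSM (adjusted p = 0.000180). IL-1β was second highest (454, 624, 429 and 464 CPM) and did not pass (0.75, SE 0.29, adjusted p = 0.132), but did without unstimulated replicate 3 (1.03, adjusted p = 0.0323).

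KITLG (ENSG00000049130, chr12:88492793-88580851, minus strand), the ligand of KIT, held 25.5, 59.8, 35.2 and 57.4 CPM in unstimulated cells. IL-13 gave 95.6, 110.4, 97.5 and 142 CPM, above all of these, and IL-1β gave 16.2, 27.8, 8.89 and 25.3 CPM, 1 of which lay above the lowest unstimulated library. KITLG rose 2.51-fold with IL-13 (log2 fold change 1.33, SE 0.35, adjusted p = 0.0167) and fell 2.27-fold with IL-1β (-1.18, SE 0.37, adjusted p = 0.0377). The rise was lost without unstimulated replicate 1 (adjusted p = 0.0834) or IL-13 replicate 4 (adjusted p = 0.0595). The fall was lost without unstimulated replicate 2 or 4 or IL-1β replicate 1 or 3 (adjusted p = 0.164, 0.142, 0.117 and 0.186). The contrast of IL-13 with IL-1β was larger, 5.70-fold (log2 difference of IL-1β from IL-13 -2.51, SE 0.37, adjusted p = 1.23e-06). IFNα also gave 4 libraries above the unstimulated ones (72.7, 81.6, 63.6 and 90.3 CPM) without passing (0.80, SE 0.35, adjusted p = 0.152), and its difference from IL-13 did not pass (log2 difference of IL-13 from IFNα 0.53, SE 0.34, adjusted p = 0.341). With TGF-β1 3 libraries lay below the unstimulated ones at 21.8, 9.57 and 14.5 CPM and replicate 4 stood at 54.3 CPM (-0.78, adjusted p = 0.234), and without that library KITLG passed (-1.46, adjusted p = 0.0102).

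**Figure D2:**
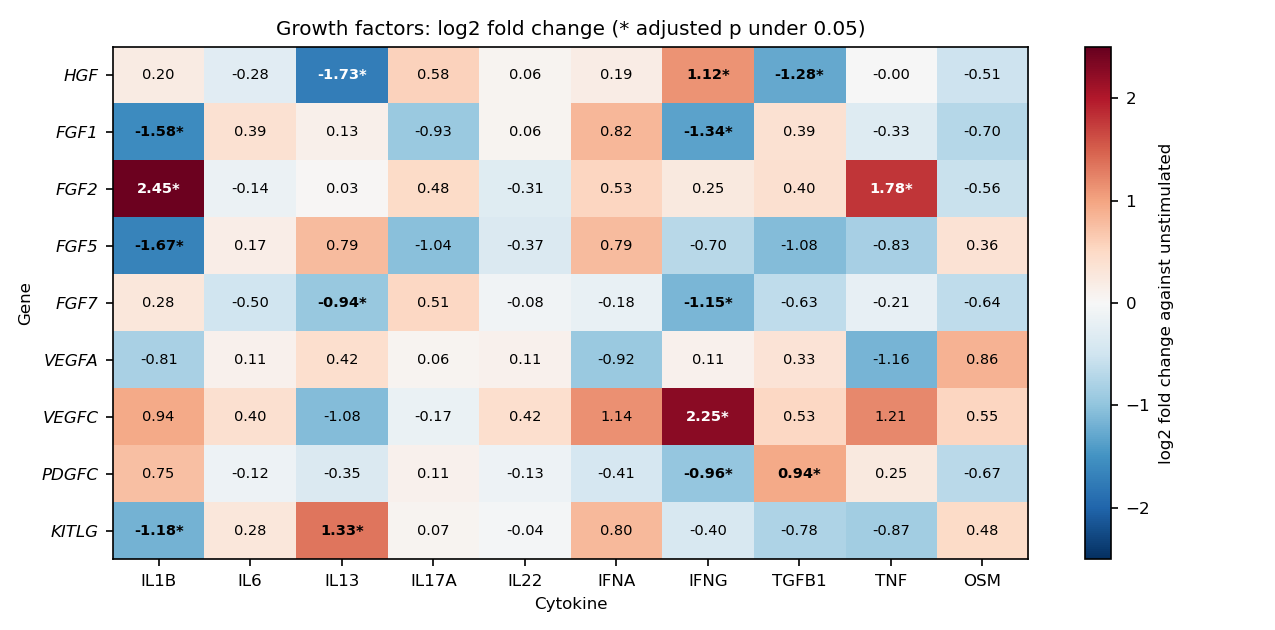
Log2 fold change of the 9 growth factor genes (rows) with each of 10 cytokines (columns) against unstimulated cells, where red is higher, blue is lower and an asterisk marks an adjusted p under 0.05. The 15 marked cells lie in the columns of IL-1β, IL-13, IFNγ, TGF-β1 and TNF, and the widest range is from -1.73 (HGF with IL-13) to 2.45 (FGF2 with IL-1β).

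By the calls in the fit of all libraries, the same cytokine moved different growth factors in opposite directions. With IL-1β FGF2 rose while FGF1 and FGF5, members of the same family, fell. With IL-13 HGF and FGF7, the epithelial factors, fell while KITLG rose. With IFNγ HGF rose while FGF7 fell, and VEGFC rose while PDGFC fell. With TGF-β1 PDGFC rose while HGF fell. Not all of these calls were firm. Of the 8 fits that left out 1 library, 3 kept each PDGFC call, 5 kept FGF7 with IL-13 and 6 kept KITLG with IL-13. Calls over all genes went both ways too, upward and downward in 3.46% and 3.92% with IL-1β and 1.53% and 2.4% with IL-13. With IFNγ these shares were 5.52% and 5.13%, and with TGF-β1 2.61% and 3.08%. The median log2 fold change of the 9 was 0.20 with IL-1β, 0.03 with IL-13, -0.40 with IFNγ and 0.33 with TGF-β1, beside -0.01, -0.05, -0.01 and -0.02 over all genes, while the median absolute change was 0.94, 0.79, 0.96 and 0.63 beside 0.35, 0.35, 0.44 and 0.40 over all genes. With IL-22 the median absolute change of the 9 was below that of all genes (0.11 beside 0.32), and with IL-6 it was 0.28 beside 0.21.

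Libraries of a cytokine and of unstimulated cells did not overlap at all in 17 combinations, of which 9 had passed. By cytokine these were 4 of the 9 genes with IL-1β (12.8% of all genes), 3 with IL-13 (9.82%), 1 with IL-17A (7.06%), 2 with IFNα (15%), 2 with IFNγ (11.9%), 2 with TGF-β1 (9.28%) and 3 with TNF (14.1%). With IL-6 (2.18%), IL-22 (4.9%) and OSM (10.4%) it was 0. The 8 that did not pass were HGF with IL-17A, FGF1 with IFNα, FGF5 with IL-13 and with TNF, VEGFA with IL-1β, TGF-β1 and TNF, and KITLG with IFNα.

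In fits of only the 2 groups compared, 6 of the 15 calls were lost. They were those with IFNγ for HGF (adjusted p = 0.0856), FGF1 (0.127) and PDGFC (0.165), and those of KITLG with IL-1β (0.0621), FGF7 with IL-13 (0.0562) and PDGFC with TGF-β1 (0.140). Some calls rested on single libraries. The number of genes passed with IFNγ was 5 in the fit of all libraries and 3 without IFNγ replicate 3. With TGF-β1 it was between 1 and 3 over the fits that left out 1 library of either group, and 1 gene (HGF) passed without unstimulated replicate 2 or unstimulated replicate 4, and 3 passed without TGF-β1 replicate 4. IL-17A, IFNα and OSM, at 0, each had 1 gene pass without IL-17A replicate 1 (FGF5), IFNα replicate 3 (VEGFA) or unstimulated replicate 1 (FGF7), and TNF had 2 without TNF replicate 4. Of the 15 calls, 9 held in all 8 fits that left out 1 of their libraries. These were the calls for HGF, FGF2, FGF5 and VEGFC, for FGF1 with IL-1β and for FGF7 with IFNγ. HGF with IFNγ is among them, though it was lost in the fit of 2 groups.

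**Figure D3:**
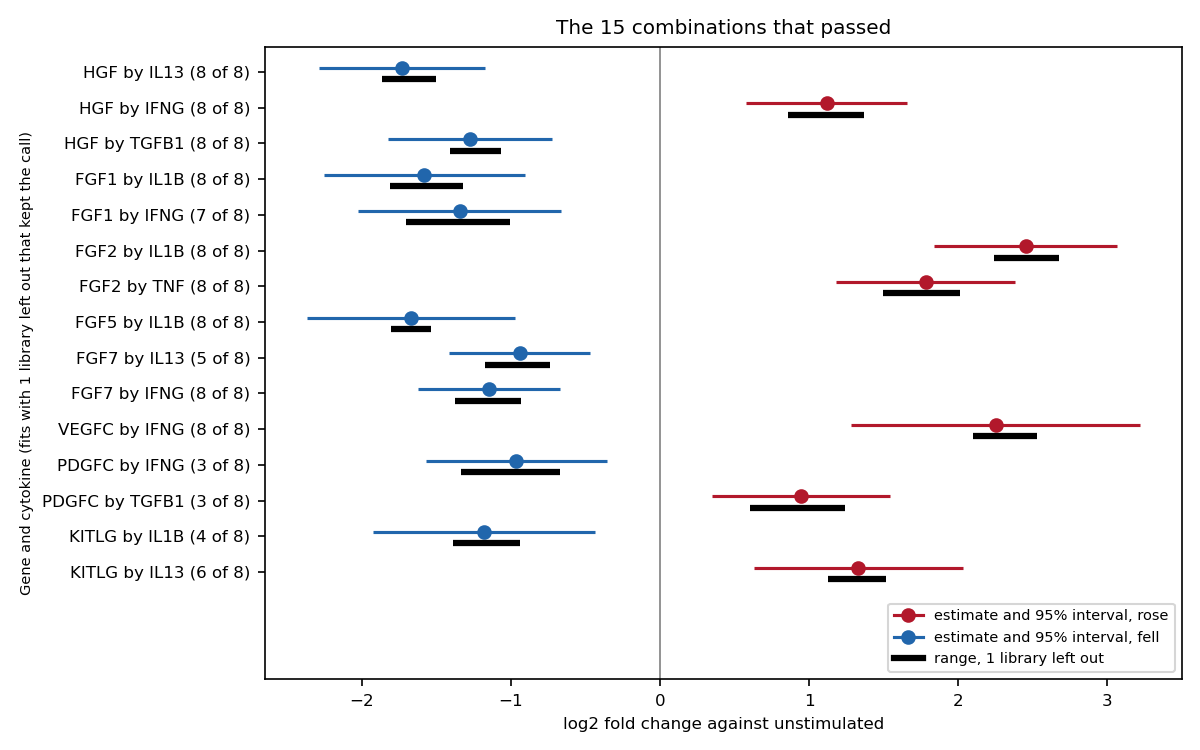
The 15 combinations that passed. Points and coloured lines give the log2 fold change with its 95% interval from the fit of all libraries, black bars the range of the estimate when 1 of the 8 libraries compared was left out, and the labels how many of these 8 fits kept the call. PDGFC kept its calls in 3 of 8 fits, KITLG in 4 and 6, and FGF2 and HGF in 8 of 8.

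For some of these genes the level went with the replicate number in many groups. Besides HGF, replicates 3 and 4 both lay above replicates 1 and 2 in 7 of 11 groups for FGF2. They did so in 6 groups for VEGFC and in 5 for FGF7. The opposite order was never seen for these 3 genes and was seen in 1 group (IL-1β) for HGF. The other genes had both orders or only the opposite one. Groups above and below numbered 0 and 2 for FGF1, 2 and 1 for FGF5 and 3 and 2 for VEGFA. For PDGFC they numbered 4 and 4 and for KITLG 1 and 1. The share of all genes with such an order was not computed, so these counts are a description and not a test. What the replicate numbers stand for is not in the labels. With IFNγ the summed level of the fibroblast markers was 27610 and 33860 CPM in replicates 1 and 2 and 20220 and 17140 CPM in replicates 3 and 4, beside 29380 to 41340 CPM in unstimulated cells, so the libraries with most HGF and least PDGFC also had the lowest marker sum. With IL-13, where HGF was lowest, the sum was 41270 to 52830 CPM. With TGF-β1, where HGF also fell, it was 26030 to 30750 CPM. With TNF, where HGF did not pass (log2 fold change -0.004), it was 21490 to 27770 CPM. The part of this in the HGF and PDGFC values was not tested.

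**Figure D4:**
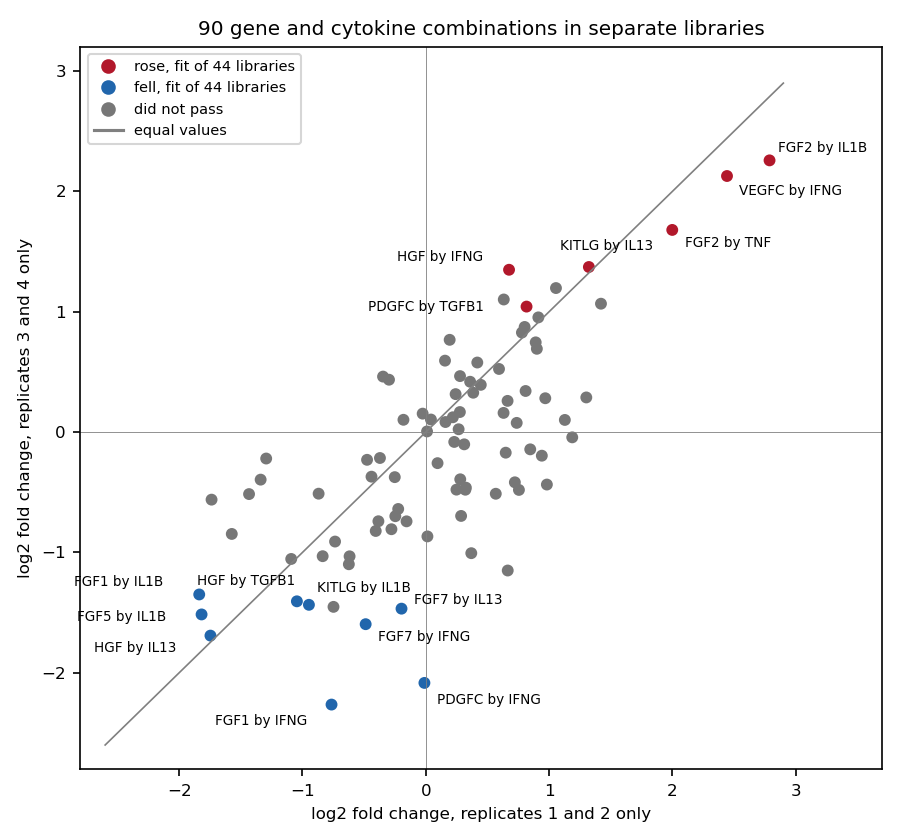
Log2 fold change of the 90 combinations computed from replicates 1 and 2 (horizontal) and, in separate libraries, from replicates 3 and 4 (vertical), where the grey line marks equal values and the named points passed in all 44 libraries. HGF with IL-13 (-1.75 and -1.69) lies by the line and FGF2 with IL-1β (2.79 and 2.26) at its upper end, while PDGFC with IFNγ is at -0.01 and -2.08. Of the 15 named combinations, 7 passed in replicates 1 and 2 alone, 11 in replicates 3 and 4 alone and 5 in both.

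Between cytokines, 150 of 405 comparisons of a growth factor over 45 pairs of cytokines passed, beside 8.42% of all gene and pair combinations. These p-values were adjusted over the genes within a pair and not over the 45 pairs. Many pairs given for single genes above set the highest group against the lowest, picked by their means. HGF and FGF5 differed in 22 pairs each, FGF2 in 19, FGF7 in 18, FGF1 in 17, KITLG in 16, PDGFC in 13, VEGFA in 12 and VEGFC in 11. The interferons differed for 5 of the 9 genes, beside 9.39% of all genes. HGF was 1.90-fold higher with IFNγ (adjusted p = 0.0188), and FGF1 (4.50-fold), FGF5 (2.81-fold, adjusted p = 0.00170), FGF7 (1.95-fold, adjusted p = 0.00453) and KITLG (2.30-fold, adjusted p = 0.0231) were higher with IFNα. IL-1β and TNF, at unequal doses, differed for 0 of the 9 genes by edgeR, beside 1.15% of all genes. At an unadjusted p under 0.05 they differed for 4 (FGF1, FGF2, FGF5 and FGF7). The share of all genes at that rule was not computed for this pair, so the 4 cannot be set beside it. DESeq2 was not run on this pair. The largest difference was in FGF1, lower with IL-1β (log2 difference -1.26, SE 0.34, adjusted p = 0.0510).

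Genes that make, carry or read such factors were looked at through 9 lists with 99 genes, of which 47 were expressed enough to be tested. In these, 62 of 470 combinations with a cytokine passed, 28 upward and 34 downward, which is 13.2% beside 5.45% of all combinations, 2.55% upward and 2.89% downward. The median absolute log2 fold change of a list lay between 0.33 (receptors of neurotrophic factors) and 0.58 (VEGF, PDGF and angiopoietin ligands), beside 0.35 over all genes and 0.51 for the 9 growth factors. The lists were chosen with earlier results of these data known.

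Among activators of HGF, both tested genes are plasminogen activators, and 9 of 20 combinations passed (45%, beside 5.45% of all combinations). PLAT (tissue-type) rose with IFNγ, from 129 ± 34.0 to 524 CPM (log2 fold change 2.02, adjusted p = 1.13e-07), as did HGF, and fell with TGF-β1 (-1.18, adjusted p = 0.00442), again as HGF did. It also rose with IFNα (1.54) and OSM (0.87), where HGF did not pass. With IL-13, where HGF fell, PLAT did not pass (-0.24, adjusted p = 0.746). PLAU (urokinase) rose with TNF (1.53, adjusted p = 9.88e-07), OSM (adjusted p = 0.000393) and IFNγ (0.78) and fell with IL-13 (-0.89) and TGF-β1 (-0.91). The other listed genes of this group, the activators HGFAC, ST14 and HPN and the inhibitors SPINT1, SPINT2 and SERPINA5 among them, had at most 6 counts in any library.

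Of receptors and co-receptors, 8 of 14 were tested and 12 of 80 combinations passed (15%, beside 5.45% of all), 5 upward and 7 downward. The co-receptors of VEGF rose, NRP2 with TNF (2.28, from 20.9 to 102 CPM, adjusted p = 2.87e-07) and IL-1β (1.43), and NRP1 with IL-1β (1.59), TNF (1.35) and IFNγ (1.18). MET, the HGF receptor, was at 33.2 CPM in unstimulated cells (18.3 to 56.1 CPM in single libraries). It fell with IL-17A (-2.02, adjusted p = 0.0402), OSM (-1.97), IL-1β (-1.82) and IFNγ (-1.67) to between 8.20 and 10.3 CPM. These falls rest on few reads, with MET counts per library of 8 to 19 with IL-17A, 3 to 27 with OSM, 7 to 29 with IL-1β and 5 to 16 with IFNγ. PDGFRA fell with IL-13 (-0.76) and TNF (-0.65), and FGFR1 with OSM (-0.96). KDR, the main VEGFA receptor of endothelium, was at 0 in all 44 libraries, and FGFR2 had at most 2 counts.

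Of 6 heparan sulfate proteoglycans that carry growth factors, SDC2, SDC4 and GPC6 fell with at least 1 cytokine. That made 10 falls and 0 rises by edgeR in 60 combinations (16.7%), where 2.89% of all combinations fell and 2.55% rose. An unadjusted p under 0.05 was found in 22 (36.7%), beside 16.1% of all. SDC1, SDC3 and GPC4 passed with 0 of the cytokines and had estimates in both directions, up to 2.25 for GPC4 with TNF (adjusted p = 0.0975) and 1.41 for SDC1 with TGF-β1 (adjusted p = 0.204). SDC2 fell with 5 cytokines, most with IL-1β (-1.29, from 121.9 to 49.99 CPM, adjusted p = 8.61e-05), GPC6 with TNF (-1.35, adjusted p = 0.000186), IFNα (-1.25) and IFNγ (-0.85), and SDC4 with IL-17A (-0.67) and IL-1β (-0.62).

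Among the other VEGF, PDGF and angiopoietin ligands, 4 were tested and 9 of 40 combinations passed (22.5%, beside 5.45% of all). ANGPT1, a ligand that stabilizes vessels, fell with IL-13 (-1.64, from 156 to 50.1 CPM, adjusted p = 3.88e-07), OSM (-1.45) and TGF-β1 (-0.66) and rose with IL-1β (0.59). PDGFA rose with TGF-β1 (1.20), as PDGFC did, and PDGFD fell with TGF-β1 (-1.34), IFNγ (-1.34), TNF (-1.09) and OSM (adjusted p = 0.0429). Of the other FGF ligands only FGF10 and FGF23 were tested, and FGF23 fell with IFNα (-1.45, adjusted p = 0.0303).

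Neurotrophic factors gave 6 rises and 5 falls in 70 combinations of 7 genes (15.7%, beside 5.45% of all combinations). PTN, a heparin-binding factor, was at 570 CPM in unstimulated cells, rose with IFNα (1.20, to 1312 CPM, adjusted p = 3.59e-06) and fell with IL-1β (-1.13), TNF (-1.13), OSM (-0.95) and TGF-β1 (-0.91). Its relative MDK also rose with IFNα (1.66, adjusted p = 0.00149). MANF, a factor secreted under stress of the endoplasmic reticulum, rose with TNF (1.35), IL-1β (1.25), IFNγ (1.25) and TGF-β1 (0.83), and BDNF fell with IL-13 (-0.87). The 2 tested receptors of such factors, SORT1 and GFRA1, passed in 0 of 20 combinations by edgeR, with 3 at an unadjusted p under 0.05.

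Feedback genes of receptor tyrosine kinases, which growth factor signalling switches on, passed in 2 of 80 combinations (2.5%), and 13 (16.2%) had an unadjusted p under 0.05, shares below and near those of all combinations (5.45% and 16.1%). SPRY2 rose with TNF (1.61, adjusted p = 0.00654) and DUSP6 fell with TGF-β1 (-1.66, adjusted p = 0.0129). Hypoxia response genes gave 8 rises and 0 falls in 80 combinations by edgeR, where 2.55% of all combinations rose, and 15 (18.8%) had an unadjusted p under 0.05, beside 16.1% of all. Only 3 of the 8 tested genes passed, and PDK1, NDRG1, ANKRD37, SLC2A1 and PFKFB3 did not pass with any cytokine. The rises were those of LDHA with OSM (0.88, adjusted p = 2.87e-05), TGF-β1, IFNγ and TNF, BNIP3 with TGF-β1 (0.74), IFNα and IFNγ, and ADM with IFNα (1.24), while VEGFA passed with 0 of these cytokines in the same model.

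**Figure D5:**
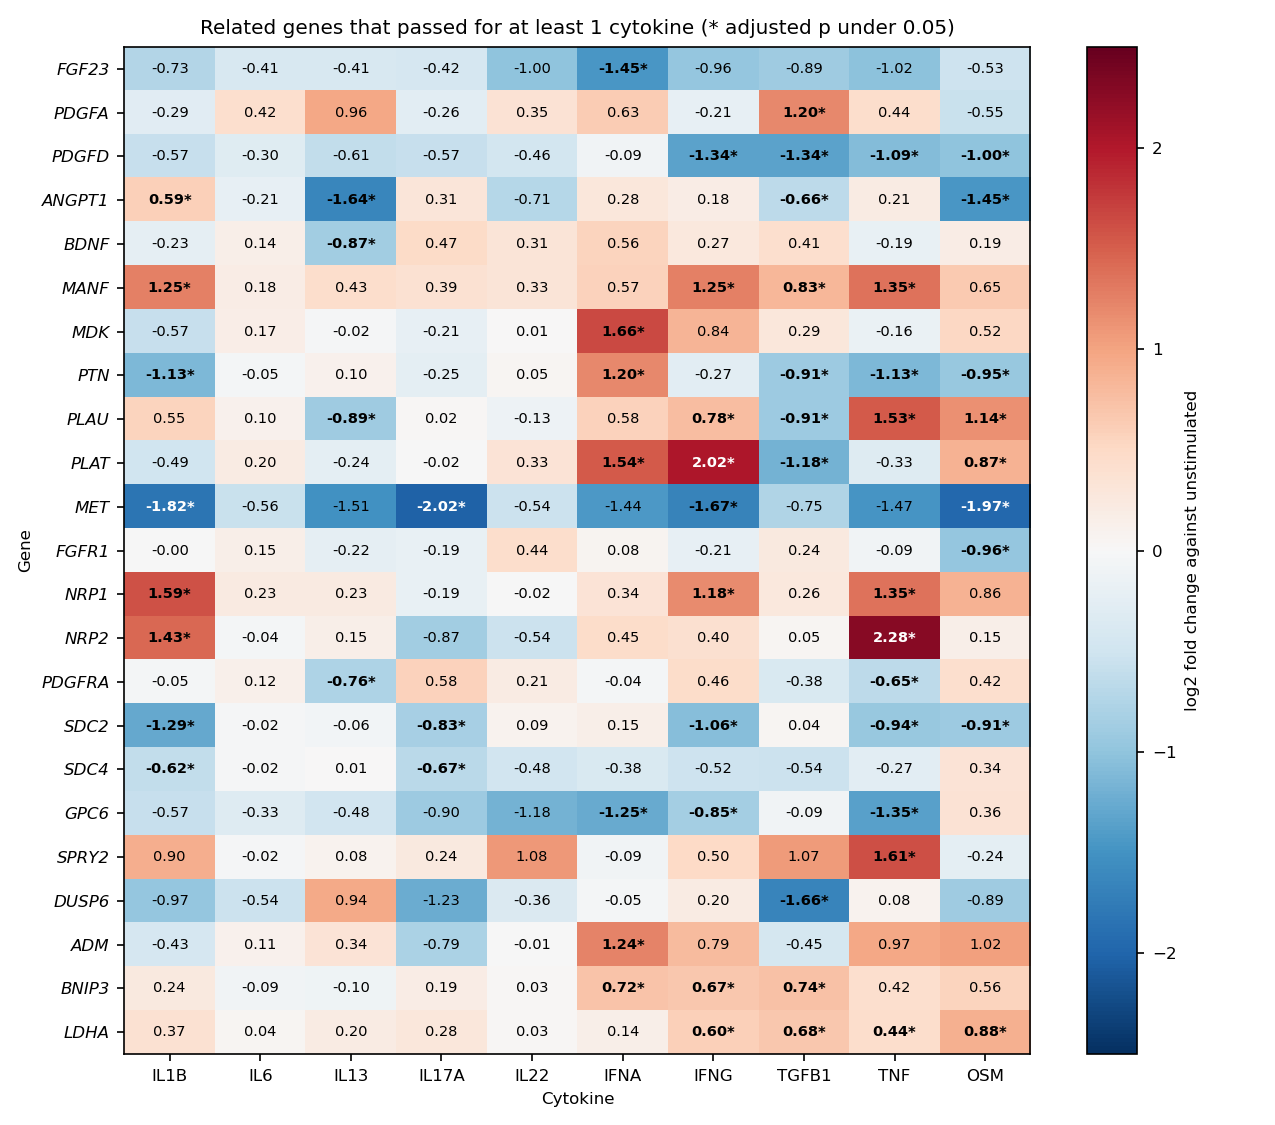
Log2 fold change of the related genes that passed with at least 1 cytokine (rows) for each of 10 cytokines (columns) against unstimulated cells, with an asterisk for an adjusted p under 0.05. PLAT with IFNγ (2.02) and NRP2 with TNF (2.28) are the largest rises. MET with IL-17A (-2.02) is the largest fall and rests on 8 to 19 counts per library with IL-17A.

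The genes most like each growth factor were taken by the correlation of mean log2 CPM over the 11 groups, among 7105 genes, which is a description of 11 points that share libraries and carries no test. For FGF2 this was the cytokine gene IL6 (r = 0.984), whose mean was 9.34 CPM in unstimulated cells, 621 CPM with IL-1β and 184.5 CPM with TNF. PDGFC was most like MLLT11 (r = 0.972), FGF5 like C1orf198 (r = 0.971), KITLG like CDC42EP3 (r = 0.955) and FGF1 like GLIPR2 (r = 0.929) and SDC2 (r = 0.915). For VEGFA it was PTPN13 (r = 0.923), for VEGFC CWC25 (r = 0.920), for FGF7 GJC1 (r = 0.914) and for HGF HOXA9 (r = 0.907). HOXA9 and GJC1 rest on few reads. Group means ran from 4.7 CPM (IL-13) to 13.25 CPM (IFNγ) for HOXA9 and from 4.27 CPM (IFNγ) to 14.17 CPM (IL-1β) for GJC1. HOXA9 was at 0 in IL-13 replicate 4 and GJC1 in IL-6 replicate 2. Among the 9 themselves the lowest correlation over the groups was that of FGF2 with VEGFA (r = -0.776).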

How the data were processed

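RNA was taken from Ccd-18Co fibroblasts and sequenced from NEBNext Ultra II libraries. Per the labels and the study's methods, the authors checked reads with FastQC 0.11.9 and MultiQC 1.14 and quantified them with kallisto 0.48.0 on hg38 transcripts, and deposited 1 table of estimated counts per gene symbol, with 5.774% of values not whole. It was run with default settings, which do not use strand. The transcript release is not given in the sources used here. Estimated counts were rounded to whole numbers, and 0 columns had no sample. Either of 2 RNA kits was used, and which library had which is not given.

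Genes kept by edgeR's default filter (9513) were normalized by TMM and fitted over 11 groups and 44 libraries with the quasi-likelihood test of edgeR 4.0.16 in R 4.3.3, where the common biological coefficient of variation was 0.331. Differences between cytokines were contrasts in the same model. CPM were computed from normalized library sizes. Scripts were tested on simulated data. Gene coordinates came from GENCODE 44 and promoter windows from RefSeq. Every one of the 9 growth factor genes is named, related genes are named where they passed, and likeness was ranked by Pearson's r. The members and lists were chosen with earlier results of these data known. Alternatives were DESeq2 1.42.0, its size factors, 2 other filters, a fold threshold, a block for replicate number, a fit of 2 groups alone, each library left out, and, chosen after seeing the data, replicates 1 and 2 or 3 and 4 alone.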

Additional observations from a re-analysis of the deposited data

Results flagged for a closer look

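In 110 sets of 4 libraries, the lowest or the highest was compared with its nearest neighbour relative to the whole range, and 6 stood apart, where chance gives about 1 in 20. Of these, 4 were growth factor levels with OSM. HGF was at 455 CPM in replicate 3, against 381.8 to 394 CPM in the other 3 libraries. FGF1 was at 30.5 CPM in replicate 4, against 18.3 to 20.2 CPM, and VEGFC was at 56.1 CPM in the same library, against 13.0 to 15.2 CPM. FGF5 was at 41.5 CPM in replicate 2, against 60.04 to 63.5 CPM. The other 2 were total counts, 2095807 in IL-1β replicate 1 against 1620541 to 1660473, and 1486860 in IL-6 replicate 2 against 1612043 to 1627960.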

How the results depend on the processing

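Over all settings run, 0 fold changes that had passed turned direction. Beside the 15 combinations that passed, the counts lay between 11 and 17 when 1 library was left out. By cytokine these ranges were 3 to 5 for IL-1β, 0 to 0 for IL-6 and IL-22, 2 to 3 for IL-13, 0 to 1 for IL-17A, IFNα and OSM, 3 to 5 for IFNγ, 1 to 3 for TGF-β1 and 1 to 2 for TNF. They were 9 to 9 for variation over groups, 139 to 162 for pairs of cytokines and 43 to 66 for related genes. An absolute log2 fold change above 1.5 left 6 combinations in all, 1 with IL-13, 1 with IFNγ, 0 with TGF-β1, 69 between cytokines and 13 of related genes. With all genes of any count kept, TNF had 2 (VEGFC added) and OSM 1 (PDGFC). DESeq2 gave 1 with IFNα. A fit of only the 2 groups compared gave 2 with IFNα, 2 with IFNγ, 1 with TGF-β1 and 2 with TNF. With the replicate number as a block, 19 combinations passed, 1 with IFNα (KITLG) and 4 with TNF (VEGFA, VEGFC and KITLG added). The numbers were not taken as pairs, since for 0 of 10 cytokines were all 4 correlations with unstimulated libraries above 0.1. As a hint the other way, from the data and not the design, 20 of 44 libraries correlated best with their own number, with a mean r of 0.0354 between same-numbered libraries and -0.0115 between others. In libraries numbered 1 and 2 alone the counts were 1 for IL-13, 3 for IL-17A, 1 for IFNγ, 2 for TNF and 40 for related genes, and in those numbered 3 and 4 they were 1 for IL-1β and 1 for OSM. The cause of these shifts was not tested. Depth limits FGF1, FGF5, VEGFA, VEGFC and KITLG most, whose median counts per library were 41, 51, 19.5, 29 and 65.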
